A study of Mus musculus with 54 samples.

Results

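Glutathione transferases, UDP-glycosyltransferases and sulfotransferases were followed in mouse embryonic stem cells (ESCs) and in the embryoid bodies (EBs) they form. Genes were taken by symbol (Gst of the alpha, kappa, mu, omega, pi, theta and zeta classes, Mgst1 to Mgst3, Ugt and Sult), and each gene was read from its brightest probe set that carries that symbol alone. This gave 38 genes of the 14104 with such a probe set. They were 18 cytosolic and mitochondrial glutathione transferases, 3 microsomal ones, 7 UDP-glycosyltransferases and 10 sulfotransferases.

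The 54 arrays covered 3 lines of male CGR8 ESCs of strain 129. WT cells were untransfected, SCR cells carried a plasmid with a scrambled short hairpin RNA, and KD cells carried the same kind of plasmid with a hairpin against Mageb16. SCR and KD were puromycin-selected stable populations, 1 population per construct. Each line was measured as undifferentiated ESCs (day 0) and as hanging-drop EBs at days 2, 4, 12, 15 and 22, with 3 arrays in each of the 18 groups. Nothing in the labels tells if a group's arrays stem from separate cultures, so p-values measure only the spread between arrays, which may be technical.

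Most of these enzymes join a polar group to a lipophilic compound so that it can be excreted. Glutathione transferases add glutathione to electrophiles, UDP-glucuronosyltransferases add glucuronic acid and sulfotransferases add sulfate from the donor PAPS. They are best known from liver, intestine and kidney. Several also act on the body's own compounds, such as steroids, bile acids, thyroid hormone and catecholamines.

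Mageb16, the targeted gene, was lower in every KD array than in every SCR array of the same day. Its log2 signal was 7.06 ± 0.0551 (SD, n = 3) in KD and 10.07 ± 0.0346 (SD, n = 3) in SCR at day 0. At day 22 it was 7.03, 7.43 and 6.89 in KD and 9.75, 9.36 and 9.52 in SCR. In WT it was itself down to between 6.98 and 7.16 at day 4, when SCR stood between 9.30 and 9.75. The array medians lay between 5.94 and 6.26 and the correlations between arrays of a group between 0.986 and 0.997. In 17 of the 18 groups the array numbered 3 lay between the other 2 arrays for more probe sets than they did, and each count below was also taken without those arrays.

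All 5 Ugt2b genes were higher in KD than in SCR at day 22, where 11.9% of all genes were. The 120 bases before the start site of each Ugt2b gene are shown because they share a stretch. The sequences are from RefSeq (GRCm38.p6), and capitals mark the 13 bases in which 10 positions are the same in all 5 promoters. The stretch was found by comparing these 5 promoters, so its presence in them is not a result.

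Ugt2b34 (chr5:86906938-86907057, minus strand): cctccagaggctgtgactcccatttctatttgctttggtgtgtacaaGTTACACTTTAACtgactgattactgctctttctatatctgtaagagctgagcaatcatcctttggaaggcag
Ugt2b1 (chr5:86926504-86926623, minus strand): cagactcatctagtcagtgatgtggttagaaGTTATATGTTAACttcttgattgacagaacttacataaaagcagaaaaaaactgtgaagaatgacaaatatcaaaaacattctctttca
Ugt2b35 (chr5:87000740-87000859, plus strand): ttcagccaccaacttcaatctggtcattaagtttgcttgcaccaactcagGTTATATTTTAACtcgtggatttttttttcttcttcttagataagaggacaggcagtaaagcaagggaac
Ugt2b36 (chr5:87092556-87092675, minus strand): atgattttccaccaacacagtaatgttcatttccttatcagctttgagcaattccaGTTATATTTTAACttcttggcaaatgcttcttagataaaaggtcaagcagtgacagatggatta
Ugt2b5 (chr5:87140341-87140460, minus strand): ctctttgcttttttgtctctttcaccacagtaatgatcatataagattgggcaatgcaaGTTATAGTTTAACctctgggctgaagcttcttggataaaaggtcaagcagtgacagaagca

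The stretch begins between 89 and 61 bases before the start site. Written as GTTANANNTTAAC and sought on both strands in the 250 bases before every start site, it occurred in 27 of 27025 genes, or 0.0999%. Of the 34 members with a promoter sequence it occurred in 6, the 5 Ugt2b genes and Ugt3a1. The other 21 genes with it included Ugt2b37 and Ugt2b38, which belong to the same family. Its GTTA start and TTAAC end resemble the binding motif of the HNF1 factors, and the shorter HNF1 motif GTTAAT, which can overlap it, was found in 7.49% of all promoters and in 4 of the 34 members' (11.8%), Gsta3, Sult1a1, Sult1d1 and Ugt3a1. None of the 5 Ugt2b promoters holds GTTAAT. A match describes the letters only.

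Throughout, values are log2 signals after RMA normalization. A gene is called higher or lower when limma's adjusted p, corrected over all 30939 probe sets, was under 0.05 and the difference was at least 2-fold, a log2 difference of at least 1. The plot of all 38 genes shows where they were high. Of the 38, 19 had their highest group mean in KD EBs at day 22 and 3 in KD EBs at day 15. The same count was not made over all genes, so it does not set the members apart. Over all genes, 24.7% were called higher in KD at day 22 than at day 0. Only 16 of the 38 lay above the lower quartile of the arrays, 4.23 to 4.51, in all 18 groups. In none of the groups did 3 members, Sult2a8, Ugt2b1 and Ugt3a1, lie above it.

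**Figure D1:**
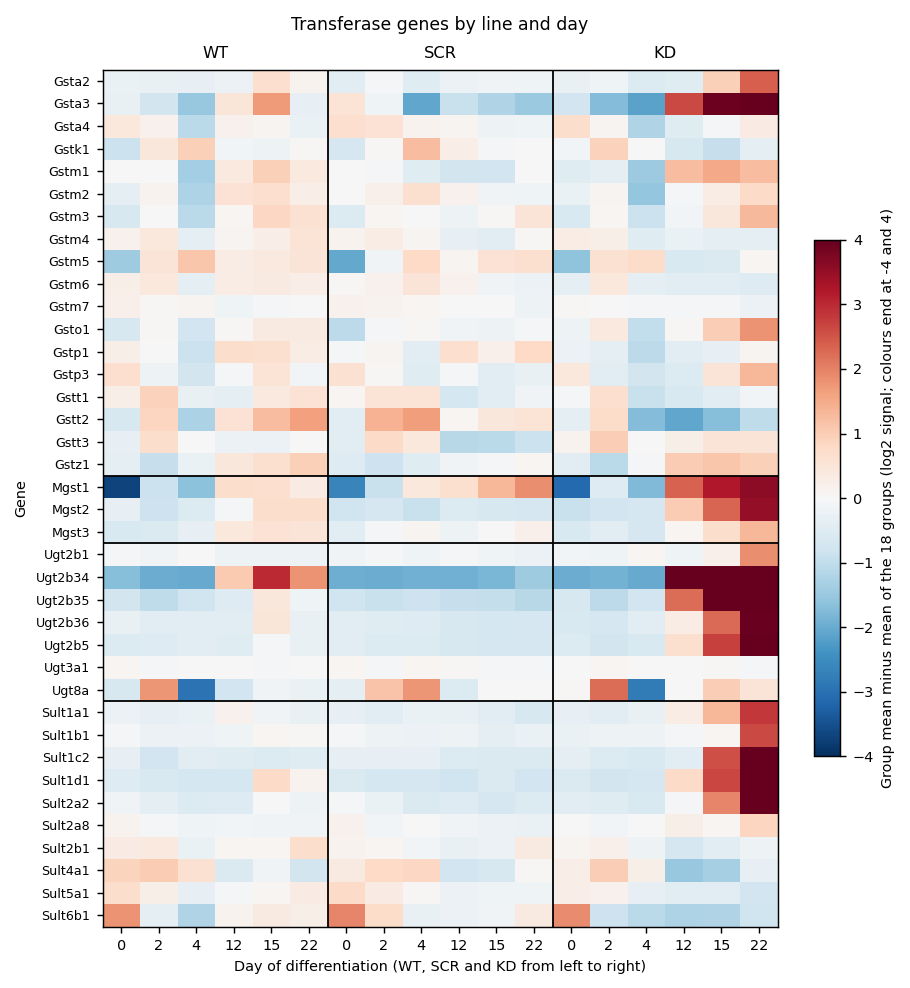
Group means of the 38 genes (rows, by family) in WT, SCR and KD at days 0 to 22 (columns), as log2 signal minus the mean of the gene's 18 groups, with 3 arrays per group. The red block at the right is the set of genes high in KD EBs at days 15 and 22, and Ugt8a is low at day 4 in WT and KD but not in SCR.

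In undifferentiated ESCs and at day 2 the lines differed in few of these genes. At day 0, KD against SCR, 1 of 38 members was called lower (0.503% of all genes) and 0 higher (0.702% of all genes), while 4 were higher at an unadjusted p under 0.05. At day 2, 2 were lower (2.4% of all genes) and 1 was higher (2.34% of all genes).

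Gsta3, an alpha-class transferase that also isomerizes steroid precursors, was the member lower at day 0. Its log2 signal was 4.94, 5.11 and 5.40 in KD, 5.96, 7.12 and 6.36 in SCR and 4.99, 6.01 and 5.90 in WT. KD lay below every SCR array and overlapped WT. KD minus SCR came to -1.33 ± 0.262 at day 0 and -1.57 ± 0.262 at day 2 (SE, with a limma adjusted p of 0.000265 and 8.78e-06). Averaged over both Gsta3 probe sets, the day 2 difference fell just short of the fold needed.

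At day 2, Sult6b1, a little-studied sulfotransferase, read 4.04, 4.10 and 3.73 in KD and between 5.35 and 5.71 in SCR. WT lay between them at 4.53, 4.21 and 4.50, and KD minus SCR was -1.56 ± 0.187 (SE, limma adjusted p = 1.22e-08). Ugt8a, which makes galactosylceramide, the lipid of myelin, was the member called higher. It read 9.14, 9.14 and 9.09 in KD, 8.01, 8.09 and 7.95 in SCR and 8.58, 8.73 and 8.67 in WT. All arrays of KD lay above all arrays of the other lines for Ugt8a, with KD minus SCR at 1.11 ± 0.213 (limma adjusted p = 8.48e-05).

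At day 4 the direction was one-sided. Of the 38 members, 8 were lower in KD than in SCR (6.15% of all genes were) and 0 were higher (5.67% of all genes were), with 1 higher at an unadjusted p under 0.05. The 8 were Ugt8a, Gstt2, Mgst1, Gstm2, Gstt1, Gsta4, Gstk1 and Gsto1, and the median difference over the members was -0.27, against 0.00 over all genes. KD minus WT at the same day gave 0 calls among the members (0.0993% of all genes higher, 0.305% lower), although 7 were lower at an unadjusted limma p under 0.05. In turn, SCR minus WT gave 6 higher (5.42% of all genes) and 0 lower (5.25% of all genes, 2 members at an unadjusted p under 0.05). These comparisons share their arrays. The SCR group was thus the one that stood apart at day 4.

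Ugt8a at day 4 read 8.63, 8.72 and 8.63 in SCR. It read 4.72, 3.43 and 4.08 in KD and 4.31, 3.41 and 4.10 in WT. KD and WT overlapped and SCR lay far above both, at 4.58 log2 units over KD (SE 0.213, limma adjusted p = 3.04e-21) and 4.72 over WT (limma adjusted p = 1.45e-21). From day 0 to day 4, Ugt8a fell by 2.30 in WT and by 2.86 in KD and rose by 2.13 in SCR. At days 12, 15 and 22 it was not called between KD and SCR. Its day 15 difference of 0.98 was just under the fold needed, with KD at 8.02, 7.74 and 7.80 and SCR at 6.79, 7.01 and 6.82. That difference was called without SCR replicate 2, KD replicate 2 or KD replicate 3.

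The Ugt8a promoter differs in base composition from those of the Ugt2b genes. Its 120 bases before the start site are shown with every CG in capitals, because it holds more CG pairs than any other member's promoter.

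Ugt8a (chr3:125938653-125938772, minus strand): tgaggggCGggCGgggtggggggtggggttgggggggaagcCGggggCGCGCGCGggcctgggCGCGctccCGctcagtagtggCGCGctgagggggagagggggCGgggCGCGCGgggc

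Over 250 bases this promoter had 76.8% G or C and 32 CG pairs. The 5 Ugt2b promoters had 31.2% to 44% and at most 2 CG pairs, and the medians over all genes were 52.8% and 6.

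Gstt2, a theta-class transferase, read 10.17, 10.16 and 10.23 in SCR at day 4, against 7.12, 6.50 and 6.75 in KD and 7.42, 7.10 and 7.19 in WT. Mgst1, a membrane transferase of the endoplasmic reticulum and the outer mitochondrial membrane, read 9.21, 9.25 and 9.28 in SCR, 7.09, 6.99 and 7.10 in KD and 7.13, 7.22 and 7.15 in WT. Gstm2, of the mu class, read 7.06, 6.91 and 7.07 in SCR, 5.44, 4.30 and 4.76 in KD and 5.41, 4.86 and 5.14 in WT. In all 3 genes the SCR arrays lay above every array of the other lines. The KD minus SCR differences were -3.40 ± 0.179 for Gstt2, -2.19 ± 0.191 for Mgst1 and -2.18 ± 0.176 for Gstm2 (SE, limma adjusted p of 1.64e-19, 9.95e-13 and 9.33e-14).

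The other 4 differed less from SCR. KD minus SCR was -1.43 for Gstt1, -1.34 for Gsta4, which clears the lipid peroxidation product 4-hydroxynonenal, -1.22 for Gstk1 and -1.04 for Gsto1. Gstk1, the mitochondrial and peroxisomal class, did not share the pattern of the rest. It read 7.16, 7.16 and 7.38 in SCR and 7.32, 6.72 and 6.86 in WT, which overlap, and 6.16, 5.85 and 6.04 in KD. Its KD minus WT difference of -0.95 fell just short of the fold needed. Gstm3 was called between SCR and WT only, at 1.10 higher in SCR.

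**Figure D2:**
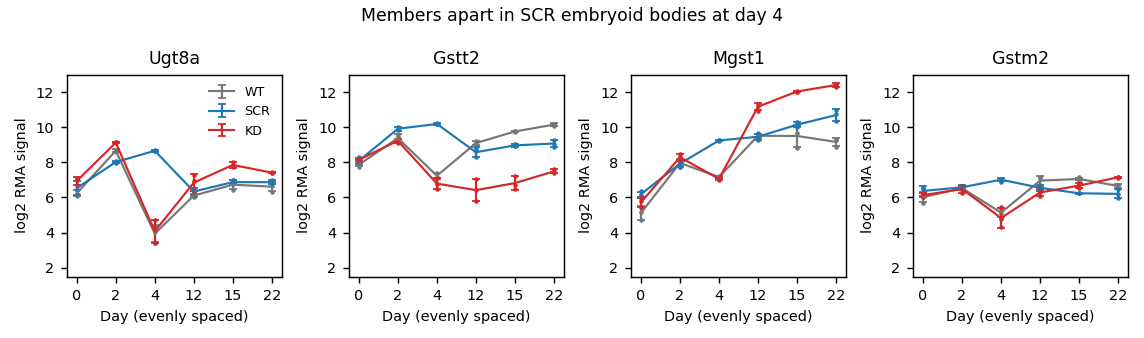
Log2 signal of Ugt8a, Gstt2, Mgst1 and Gstm2 in every array (points) by day, with the mean and SD of 3 arrays (lines and bars), in WT, SCR and KD. The days are evenly spaced and not to scale. At day 4 the SCR arrays of all 4 genes lie above those of WT and KD, which lie together.

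Other measures moved with this day 4 difference. The 6 pluripotency markers averaged 10.60 to 10.77 per array in SCR, 8.33 to 9.09 in WT and 7.44 to 8.37 in KD. All 6 were lower in KD than in SCR, where 6.15% of all genes were called lower and 5.67% higher. Of 9 genes induced by the oxidative stress factor NRF2 outside the members, 4 were lower in KD than in SCR, Nqo1 (by 2.68), Gclm (by 2.13), Hmox1 (by 1.83) and Srxn1 (by 1.30), and the same 4 were called higher in SCR than in WT. Of 13 regulators, Ahr was lower in KD by 2.08, and Foxa1, Foxa2 and Foxa3, factors of endoderm, were higher by 3.20, 2.89 and 1.10. For these 4 the WT mean lay nearer KD than SCR. Foxa1, for example, had means of 8.13 in WT, 8.14 in KD and 4.94 in SCR. Single markers of several cell types also differed, but no such list with more than 1 marker moved as a whole. At an unadjusted limma p under 0.05, KD against SCR, 1 of 4 endothelial markers was higher and 1 lower. Higher were also 2 of 4 intestinal and 1 of 10 hepatocyte and yolk sac endoderm markers, with 0 lower. Of 6 mesenchyme markers 2 were higher and 2 lower, of 4 neuronal 0 and 2, and of 3 macrophage 0 and 1. Of 5 cardiac muscle markers 1 was higher and 2 lower, of 5 of stratified epithelium 0 and 1, and of 3 erythroid 1 and 0. The 1 oligodendrocyte marker, Mbp, was lower, at means of 5.42 in KD, 6.25 in SCR and 5.39 in WT. Pdgfra (5.98) and Col1a1 (1.96) of mesenchyme, Kdr (4.54) of endothelium, Cdx2 (4.02) of intestine and Ttr (1.23) of endoderm were higher in KD than in SCR. WT was near KD in most of these. Means in WT, KD and SCR were 10.27, 10.03 and 4.05 for Pdgfra and 10.07, 9.95 and 5.41 for Kdr. They were 8.18, 8.88 and 4.86 for Cdx2 and 6.68, 6.33 and 5.10 for Ttr. For Col1a1 WT lay between the other lines, at 5.49, 6.41 and 4.45. Neurod1 (-3.19) and Map2 (-1.62) of neurons, Dcn (-2.14) and Col1a2 (-1.64) of mesenchyme and Cd68 (-1.65) of macrophages were among those lower. The WT means of these lower genes also lay nearer KD than SCR, as for Neurod1 at 3.90 in WT, 3.40 in KD and 6.59 in SCR. The part of these markers and regulators in the transferase values was not tested. In whole EBs, a change in the number of cells of a type and a change in RNA per cell cannot be told apart.

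From day 12 the direction turned. KD EBs had 10 members higher than SCR at day 12 (8.66% of all genes), 16 at day 15 (10.3% of all genes) and 20 at day 22 (11.9% of all genes). Members lower in KD numbered 2, 3 and 2 on these days (5.46%, 6.16% and 4.61% of all genes). The median difference over the 38 members was 0.10, 0.57 and 1.14, and that over all genes 0.01, -0.02 and -0.05. By family, the members higher at day 22 were 5 of 7 UDP-glycosyltransferases, 6 of 10 sulfotransferases, 3 of 3 microsomal and 6 of 18 other glutathione transferases.

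WT gave a like count at day 22. KD minus WT had 16 members higher (15.9% of all genes) and 3 lower (7.15% of all genes). SCR minus WT had 1 higher (6.71% of all genes) and 4 lower (2.52% of all genes), the 4 being Ugt2b34 (-3.22), Mgst2 (-1.38), Gsta3 (-1.16) and Gstt2 (-1.07). In several genes WT EBs thus lay between SCR and KD.

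The Ugt2b enzymes glucuronidate steroids, bile acids and drugs, chiefly in liver. Ugt2b34 at day 12 read 10.66, 8.95 and 10.18 in KD, 5.43, 6.12 and 5.91 in WT and 2.95, 2.76 and 2.88 in SCR. At day 22 it read 10.53, 10.88 and 10.16 in KD, 5.84, 7.03 and 6.86 in WT and 3.37, 3.17 and 3.54 in SCR. In WT its highest readings came at day 15, at 6.92, 8.39 and 7.96. The 3 lines did not overlap on days 12 and 22, while up to day 4 all of their arrays read between 2.62 and 3.29. On days 12, 15 and 22, KD exceeded SCR by 7.07, 7.79 and 7.16 (SE 0.282 each), with a limma adjusted p of 8.01e-23, 2.12e-24 and 5.93e-24. KD minus WT was 4.11, 3.00 and 3.95 on these days. A second Ugt2b34 probe set gave 6.95 at day 12 and 6.61 at day 22.

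Ugt2b35 read 8.12, 8.77 and 7.79 in KD at day 22, 3.06, 4.23 and 3.79 in WT and 2.78, 2.79 and 2.67 in SCR. Its KD minus SCR difference was 3.16 at day 12, 5.02 at day 15 and 5.48 ± 0.276 (SE, limma adjusted p = 2.13e-20) at day 22. Ugt2b5 read 5.68, 5.79 and 5.70 in KD at day 15 and 7.32, 7.53 and 7.18 at day 22. SCR stayed between 2.17 and 2.42 on both days, and the difference at day 15 was 3.41 ± 0.221 (SE, limma adjusted p = 1.24e-16). Ugt2b36 followed at 2.99 on day 15 and 4.64 on day 22, where it read 7.56, 7.88 and 7.58 in KD and 3.17, 3.03 and 2.90 in SCR. Ugt2b1 was called at day 22 alone, at 2.09, and its KD arrays of that day, 4.46, 5.08 and 3.45, spread more widely than those of SCR, 2.43, 2.09 and 2.21.

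The KD replicate 2 array of day 12 read lower than the other 2 in this group. It gave 2.72 for Ugt2b5 where the others gave 4.82 and 3.34, and 2.72 for Sult1d1 where they gave 5.07 and 4.23. The Ugt2b5 call at day 12 (1.28) was lost without KD replicate 1 (0.68) and in a fit of the compared arrays alone (limma adjusted p = 0.0637). Without 1 array at a time, or without all arrays numbered 3, the number of members called at day 12 stayed between 11 and 13.

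The remaining UDP-glycosyltransferases were not called between late KD and SCR EBs. Ugt3a1, whose promoter also holds the shared stretch, had group means between 3.87 and 4.04 in all 18 groups and was called in no comparison. Ugt8a was 0.98 higher in KD than in SCR at day 15 and 0.54 higher at day 22, under the fold needed on both days.

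Of the 10 sulfotransferases, 5 were first called higher at day 15 (Sult1a1, Sult1c2 and Sult2a2) or day 22 (Sult1b1 and Sult2a8). Only Sult1d1, which sulfates catecholamines, was called at day 12, at 1.57, and it reached 3.23 at day 15 and 4.99 at day 22. At day 22 it read 7.34, 7.96 and 7.08 in KD, 2.70, 4.22 and 3.17 in WT and 2.38, 2.47 and 2.57 in SCR, so that WT lay slightly above SCR. A second, dimmer probe set of Sult1d1 gave 0.64 at day 12 and 3.40 at day 22. Sult1c2, which sulfates phenols, read 3.63, 3.20 and 3.52 in KD at day 12, 6.24, 6.73 and 6.47 at day 15 and 9.20, 9.12 and 8.85 at day 22. SCR and WT stayed between 3.16 and 3.47 on these days. Its KD minus SCR difference was 3.17 at day 15 and 5.72 ± 0.132 (SE, limma adjusted p = 1.59e-31) at day 22, and KD minus WT was 5.65 at day 22. In Sult1c2, unlike Ugt2b34, WT EBs showed no rise of their own.

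Sult2a2, of the class that sulfates hydroxysteroids and bile acids, read 7.61, 7.86 and 7.33 in KD at day 22 and 2.92, 3.17 and 2.80 in SCR. Sult1a1, the main phenol sulfotransferase, read 6.06, 6.36 and 6.14 in KD and 2.55, 2.86 and 2.74 in SCR. Sult1b1, which acts on phenols and thyroid hormone, read 5.12, 6.06 and 4.59 in KD and 2.29, 2.36 and 2.41 in SCR. In none of these 3 did the KD arrays overlap those of SCR or WT. Sult2a8 was 1.13 higher in KD, though its group means stayed under the lower quartile of the arrays throughout. Sult6b1 was 1.17 lower in KD. Sult2b1, Sult4a1 and Sult5a1 were called on no day between KD and SCR, although a second probe set of Sult4a1, a brain sulfotransferase, was 1.53 lower in KD at day 12.

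**Figure D3:**
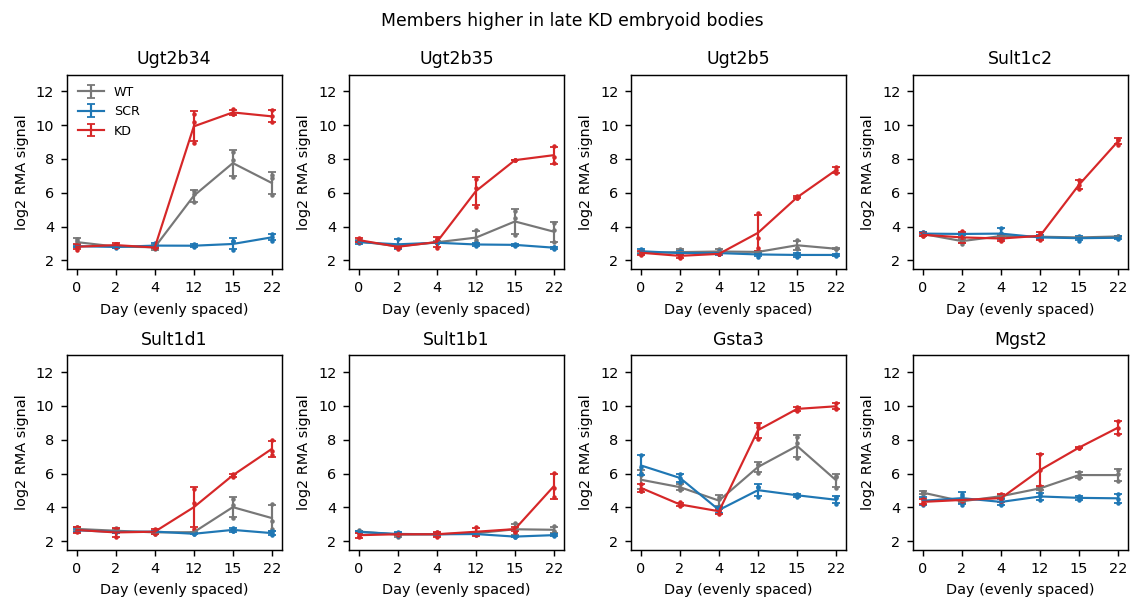
Log2 signal of 8 members in every array (points) by day, with the mean and SD of 3 arrays (lines and bars), in WT, SCR and KD. The days are evenly spaced and not to scale. KD separates from SCR at day 12 for Ugt2b34, Ugt2b35 and Gsta3, at day 15 for Sult1c2 and at day 22 for Sult1b1, and WT lies between them for Ugt2b34 and Gsta3.

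Among the glutathione transferases Gsta3 showed the largest difference. It read 8.91, 8.07 and 8.73 in KD at day 12, 6.53, 6.06 and 6.58 in WT and 4.63, 5.21 and 5.21 in SCR. At day 22 it read 9.85, 10.19 and 9.91 in KD, 5.17, 5.86 and 5.78 in WT and 4.54, 4.21 and 4.59 in SCR. At day 15 WT came closer to KD, at 6.90, 8.19 and 7.81 against 9.73, 9.82 and 9.93, with SCR at 4.74, 4.79 and 4.61. The gene that was lower in KD ESCs was thus higher in late KD EBs, with KD minus SCR at 3.55, 5.11 and 5.54 ± 0.262 (SE, limma adjusted p = 2.64e-21 at day 22) on days 12, 15 and 22. Its second probe set gave 1.59 at day 12 and 3.84 at day 22.

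The microsomal enzymes were all higher in KD at day 22. Mgst2, which can also make leukotriene C4, read 8.72, 9.12 and 8.33 in KD, 5.54, 6.20 and 5.99 in WT and 4.81, 4.27 and 4.52 in SCR, and was 4.19 higher in KD than in SCR. Mgst1 read 12.30, 12.45 and 12.46 in KD, 10.33, 10.97 and 10.78 in SCR and 8.90, 9.33 and 9.26 in WT. Here SCR, not WT, lay in the middle. Mgst3 was 1.14 higher in KD than in SCR.

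Gstt2 went the other way. It was lower in KD than in SCR at day 4 (3.40), day 12 (2.16), day 15 (2.15) and day 22 (1.59). At day 12 it read 7.03, 5.82 and 6.41 in KD, 8.29, 8.82 and 8.63 in SCR and 9.20, 8.96 and 9.13 in WT. At day 22 it read 7.45, 7.62 and 7.39 in KD, 9.30, 8.88 and 9.04 in SCR and 10.05, 10.21 and 10.18 in WT. KD lay below both other lines without overlap on both days, and KD minus SCR was -2.16 ± 0.179 (SE, limma adjusted p = 1.95e-13) at day 12. Gstt3, of the same cluster on chromosome 10, was 1.35, 1.60 and 1.38 higher in KD than in SCR on days 12, 15 and 22. Gstt1, which lies between Gstt3 and Gstt2, differed by 0.10, 0.03 and 0.03 on these days and was not called.

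Further glutathione transferases were called late. Gsta2 was 2.58 higher in KD at day 22, Gsto1, which reduces dehydroascorbate, 1.86, Gstp3 1.61 and Gstm1 1.22. The 3 further Gstm1 probe sets did not all pass, and 1 of them gave 0.65 at day 12 and 0.45 at day 22. Gstz1, an enzyme of tyrosine breakdown, was called higher at day 12 (1.15) and day 15 (1.18), Gstp1 lower at day 12 (-1.10) and Gstm5 lower at day 15 (-1.16). Gstm3, Gstm4, Gstm6 and Gstm7 were called on no day between KD and SCR.

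Members that lie next to each other on a chromosome (RefSeq gene order, GRCm38.p6) did not all behave alike. On chromosome 5 the order is Ugt2b34, Ugt2b1, Ugt2b35, Ugt2b36, Ugt2b5, Sult1b1 and Sult1d1 among the members. Of these, 7 of 7 were higher in KD than in SCR at day 22 (11.9% of all genes were). Ugt2b1 and Sult1b1, within that run, were first called at day 22, while Ugt2b34, Ugt2b35, Ugt2b5 and Sult1d1 were called from day 12, Ugt2b5 on that day only while KD replicate 1 was included. On chromosome 3, 1 of 7 Gstm genes was called higher at day 22, which is near the share of 11.9% over all genes. Near-identical family members can share probes, and for these genes the arrays may not separate them fully.

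**Figure D4:**
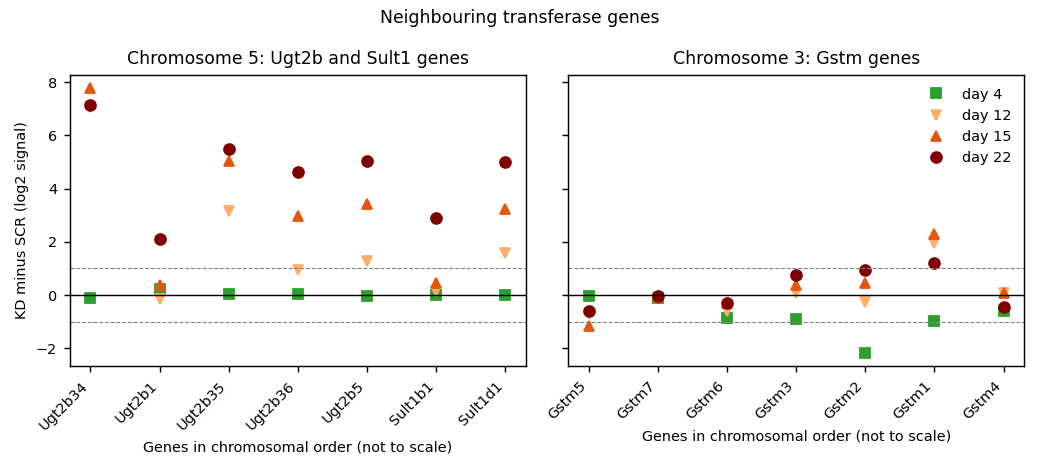
KD minus SCR difference in log2 signal at days 4, 12, 15 and 22 (marks) for members on chromosome 5 and chromosome 3, in chromosomal order and not to scale. The dashed lines mark a 2-fold difference. All 7 genes on chromosome 5 lie above the upper line at day 22 and near 0 at day 4, while on chromosome 3 Gstm1 alone lies above it at day 22 and Gstm2 lies below the lower line at day 4.

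Within each line the same genes can be followed from day 0. By day 4, WT had 3 members higher (12.7% of all genes) and 8 lower (9.06% of all genes). SCR had 6 higher (9.34% of all genes) and 3 lower (5.01% of all genes), and KD had 2 higher (12.7% of all genes) and 7 lower (7.98% of all genes). Gstm5 and Mgst1 rose and Gsta3, Gstp3 and Sult6b1 fell in each of the 3 lines.

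Sult6b1 fell most in WT and KD. It read 6.24, 6.94 and 6.61 in WT at day 0 and 3.44, 3.87 and 3.48 at day 4, a fall of 3.00 ± 0.187 (SE, limma adjusted p = 1.33e-17). In KD it read 6.32, 6.90 and 6.83 at day 0 and 3.97, 3.85 and 3.32 at day 4. Gstm5, a mu-class enzyme of brain and testis, read 6.47, 5.91 and 6.11 in WT at day 0 and 8.78, 8.64 and 8.69 at day 4. It rose by 2.54 in WT, 2.84 in SCR and 2.35 in KD.

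By day 22 the lines had parted. WT had 8 members higher than at day 0 (11.6% of all genes) and 2 lower (4.17% of all genes). SCR had 3 higher (17.3% of all genes) and 2 lower (5.59% of all genes), a smaller share than among all genes on the rising side. KD had 21 higher (24.7% of all genes) and 2 lower (11.4% of all genes), with a median change of 1.55 over the members and 0.11 over all genes. Mgst1 rose in each line, by 4.04 in WT, 4.50 in SCR and 6.68 in KD. Ugt2b34 rose by 7.72 in KD and by 3.50 in WT and was not called in SCR.

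The difference between these changes was tested directly. The change from day 0 to day 22 in KD minus that in SCR was called above 0 for 20 members (12.9% of all genes) and below 0 for 3 (6.56% of all genes). The change in KD minus that in WT was called above 0 for 19 members (17.5% of all genes) and below 0 for 4 (7.49% of all genes). For Ugt2b34 these differences in the change were 7.20 and 4.22.

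Genes that supply and remove the products of these enzymes moved in part. Over all genes, 11.9% were called higher and 4.61% lower in KD than in SCR at day 22. At day 22, KD against SCR, 4 of 8 genes of sulfate and PAPS supply were higher and 0 lower (1 at an unadjusted limma p under 0.05). Among the 4 were Papss2, which makes PAPS, by 3.22 and the sulfate carrier Slc26a1 by 1.27. Slc26a1 was dim, at means of 4.20 in KD and 2.92 in SCR. The carrier Slc26a2 read 7.87 in KD and 6.45 in SCR. Of 7 genes of UDP-glucuronate supply and removal, Gusb, which splits glucuronides, was 1.25 and Ugp2, which makes UDP-glucose, 1.07 higher. Of 9 exporters and carriers of conjugates 4 were higher, Slco1b2 by 3.92, Abcc3 by 3.33, Abcc2 by 1.57 and Slco2b1 by 1.31. Abcc4 was 1.80 lower. Slco2b1 was dim too, at means of 4.15 in KD and 2.84 in SCR.

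Glutathione synthesis and recycling did not rise as a group. Of its 15 genes 2 were higher at day 22 (11.9% of all genes were), the peroxidases Gpx2 (2.31) and Gpx8 (1.37). Lower was 1, Gpx7 (-1.19; 4.61% of all genes were lower), and the median difference was -0.12. Of the 9 NRF2-induced genes 0 were called at day 22 by limma, with 2 higher and 2 lower at an unadjusted p under 0.05 and a median of 0.08. Of the 13 regulators 5 were higher, Hnf4a, a liver and gut factor, by 2.76, Foxa3 by 2.56, Foxa1 by 1.75, Ahr by 1.63 and Cebpa by 1.14.

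Cell type markers also differed between the late EBs. The shares to set beside their counts were 11.9% of all genes higher and 4.61% lower in KD than in SCR. At day 22, KD against SCR, 8 of 10 hepatocyte and yolk sac endoderm markers were higher, with array means of 10.46 to 10.76 in KD, 8.11 to 9.37 in WT and 5.72 to 6.36 in SCR. The 4 intestinal markers were all higher, with array means of 7.85 to 8.50 in KD, 5.05 to 5.49 in WT and 4.06 to 4.20 in SCR. Alb was 7.51 and Afp 3.84 higher. The other 2 of the first list, Amn and Cubn, the receptor pair of yolk sac endoderm and kidney, were not called between KD and SCR (-0.99 and -0.95) and were lower in KD than in WT (-2.44 and -2.31). Markers of other tissues rose too, 6 of 6 of fibroblasts and mesenchyme, 4 of 5 of stratified epithelium, 3 of 5 of cardiac muscle, 3 of 4 of endothelium, 2 of 3 of macrophages and 1 of 3 of erythroid cells. The 6 pluripotency markers were lower in KD than in SCR. Between these lines limma called 0 of 4 neuronal markers, all 4 lower at an unadjusted p under 0.05. The 1 oligodendrocyte marker was not called. Neuronal array means were 8.31 to 8.64 in KD, 8.48 to 9.49 in SCR and 4.84 to 5.12 in WT. At an unadjusted limma p under 0.05, all 4 were higher in KD, and in SCR, than in WT. The part of these differences in the transferase values was not tested.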

How the data were processed

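Log2 expression values of 54 Affymetrix mouse expression arrays were used as deposited. According to the submitters' processing notes and the methods, the authors normalized the arrays together by RMA (Affymetrix Expression Console and Partek 6.6 in the notes, R Bioconductor in the methods), so the log2 values carry background correction and quantile normalization. RNA was extracted with Trizol and RNeasy columns. Arrays give no read depth, and their number, 3 per group, limits the precision.

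From these values a group-mean model over all 54 arrays was fitted with limma 3.58.1 (R 4.3.3, eBayes), with Benjamini-Hochberg adjustment over all 30939 probe sets in each comparison. Genes were counted by their brightest probe set with 1 platform symbol (14104 genes). The fit was tested on simulated data. Compared were KD with SCR on each day, all line pairs at days 4 and 22, days 4 and 22 with day 0 in each line, and the changes between lines. Replicate numbers correlated over 0.1 in all 3 pairs in KD against SCR at days 0, 2 and 12, in KD against WT at day 4 and in SCR against WT at day 22, and not in the others (day 15: -0.149, -0.136 and 0.096), so the replicate block was an alternative.

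The members, the partner and marker lists and the shared promoter stretch were chosen with earlier results of these data known. Named were, in each KD and SCR comparison, up to 4 members with the largest called difference and no overlap of arrays, up to 3 in each comparison of days with day 0, members called on at least 4 days, and up to 4 genes of each partner list. Other members called between KD and SCR are given by value, though not for every day of a call. Calls in other comparisons are given only in part. Ugt2b36, Ugt2b1, Sult1d1, Sult2a2, Sult1a1, Sult1b1, Mgst2, Mgst1 at day 22, Gstk1 and Ugt3a1 were given in more detail after their values were seen. Promoter sequences came from RefSeq (GRCm38.p6) for 34 of 38 members.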

Additional observations from a re-analysis of the deposited data

Results flagged for a closer look

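The change from day 0 to day 22 differed between KD and SCR, by limma's interaction term, in 23 members. This count was 21 to 25 without 1 array or without all arrays numbered 3. Of all genes, 12.9% were called above 0 and 6.56% below. The change in KD minus that in SCR was 7.20 log2 units for Ugt2b34, 6.87 for Gsta3, 5.79 for Sult1c2, 5.36 for Ugt2b35, 5.12 for Ugt2b5, 5.01 for Sult2a2, 4.97 for Sult1d1, 4.81 for Ugt2b36 and 4.26 for Mgst2. It was 3.47 for Sult1a1, 3.09 for Sult1b1, 2.47 for Gsta2, 2.18 for Mgst1, 2.05 for Ugt2b1, 1.78 for Gstp3, 1.69 for Gstm1, 1.33 for Mgst3, 1.29 for Sult2a8, 1.18 for Gstm2 and 1.03 for Gsto1. It was -1.65 for Gstt2, -1.10 for Sult6b1 and -1.02 for Gstm5.

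The change also differed between KD and WT in 23 members, and in 19 to 23 with arrays left out in the same way. Of all genes, 17.5% were called above 0 and 7.49% below. The change in KD minus that in WT was 5.69 for Sult1c2, 4.86 for Gsta3, 4.65 for Ugt2b5, 4.62 for Sult2a2, 4.57 for Ugt2b36, 4.46 for Ugt2b35, 4.22 for Ugt2b34, 4.16 for Sult1d1 and 3.36 for Mgst2. It was 3.22 for Sult1a1, 2.80 for Sult1b1, 2.64 for Mgst1, 2.31 for Gsta2, 2.15 for Ugt2b1, 1.69 for Gstp3, 1.31 for Gstm1, 1.08 for Sult2a8, 1.03 for Sult4a1 and 1.01 for Gsto1. For Sult4a1 the change itself was -1.63 in WT and -0.60 in KD, and the latter was not called. The change in KD minus that in WT was -2.94 for Gstt2, -1.15 for Gstk1, -1.12 for Sult6b1 and -1.06 for Gstm4. Calls near the fold of 2 were lost in some settings, those of Sult2a8, Sult4a1, Gsto1, Gstk1, Sult6b1 and Gstm4. As the mean of its probe sets, Sult4a1 gave 0.54.

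A signal also appeared in 4 probe sets left out of the counts because they carry several gene symbols. The 3 sets for the Ugt1a genes, which share their last exons, were higher in KD than in SCR at day 22 by 3.65, 5.04 and 5.51. The set shared by Gm3776, Gsta2 and Gsta1 was higher by 6.33, reading 9.60, 10.24 and 8.37 in KD, 3.42, 2.96 and 2.85 in SCR and 4.10, 5.83 and 5.74 in WT.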

How the results depend on the processing

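Each count of called members was recomputed under quantile normalization once more, median centring, the brightest 60% of probe sets, the mean of all probe sets of a gene, the compared arrays alone, a trended robust fit, array weights, the replicate block and with arrays left out. With the brightest 60% of probe sets, only 16 of the 38 members could be called, and the counts fell to 6 at day 12, 7 at day 15 and 6 at day 22 for KD against SCR, 4 for KD and 3 for SCR against WT at day 22, 9 for KD from day 0 to day 22, and 8 and 7 for the difference in that change from SCR and from WT. Leaving out each array, or all arrays numbered 3, gave 0 to 1 member for KD against WT at day 4, the 1 being Gstk1 (lower), without WT replicate 2, WT replicate 3, KD replicate 1 or all arrays numbered 3. It gave 8 to 9 for KD against SCR at day 4, 17 to 20 at day 15 and 22 to 24 at day 22. The other alternatives kept all counts within 1.5 times. With the replicate block the counts for KD against SCR were 1, 3, 8, 12, 19 and 22 from day 0 to day 22. In the comparisons in which the rule named the 11 members, 555 of 556 values under an alternative kept direction and call. The remaining 1 (Gsta3 at day 2, as the mean of its probe sets) was no longer called. The rule took the largest called differences without overlap of arrays in these same comparisons. Few of them could lose a call, so this count says little about the calls of other members. In other comparisons named members did lose calls. The mean of its probe sets ended those of Gsta3 for SCR against WT at day 22 (-0.79) and for day 4 against day 0 in WT (-0.94) and KD (-0.78), and quantile normalization or centring that of Gstm2 for KD from day 0 to day 22 (0.81 and 0.78). Leaving out arrays ended calls near the fold of 2, among them Gsta2 at day 15 (0.98 without KD replicate 1, 0.81 without KD replicate 3) and Gstz1 at day 12 (0.99 without KD replicate 1). Members near the fold of 2, such as Gstm3, Gsto1 and Mgst2 in WT, gained or lost calls with the scaling, and dim members are limited by signal near the background.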
